A study of Mus musculus with 2 samples.

Results

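Cholesterol and fatty acid synthesis genes were followed in pancreatic islets of mice labelled as overexpressing 2 microRNAs, and in control islets. The genes were 41 members listed by symbol, which cover the mevalonate pathway, sterol synthesis, SREBP control, fatty acid synthesis and desaturation, and LXR receptors and targets. A probe set, the group of array probes read as 1 value, belonged to a member when that member's symbol was its single gene symbol in the platform's annotation. By this rule 39 of the 41 members had a value, through 92 of the 45101 probe sets, out of 18193 genes measured in all. Acat2, a cytosolic thiolase, and Nr1h2, the receptor LXR beta, had no such probe set, so their expression was not analysed here. The members were chosen with earlier results of the same 2 arrays in view, so their differences are described and not tested.

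The transgenic sample was islets of male mice aged 6 weeks with the genotype miR-141/200c_overexpression. The control sample was islets of male mice of the same age labelled Bl6_control. The labels give beta cells as the source and islets as the tissue, and do not give the number of founder lines or the number of mice behind a sample. The title of the transgenic sample is Ripmir_islets, which the labels do not spell out, and no field describes the promoter of the transgene. A strain is named for the control sample (C57Bl6) but not for the transgenic one. Each genotype was read on a single array (n = 1), so values come without an error or a p-value, and higher and lower describe these 2 arrays.

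The microRNAs of the transgene are small RNAs that lower messenger RNAs with sites matching their seed, bases 2 to 8. Their mature 3p strands are shown because the transgene is the treatment that the labels name. The sequences are those of RefSeq (GRCm38.p6), with the seed in capitals, at chr6:124717917-124717938 and chr6:124718324-124718346 on the minus strand.
mmu-miR-141-3p: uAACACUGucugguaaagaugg
mmu-miR-200c-3p: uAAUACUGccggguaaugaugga
The array does not read the mature microRNAs, so their overexpression was not checked here.

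Cells build cholesterol from acetyl-CoA. The mevalonate steps yield isoprenoids, and squalene is then closed and trimmed to cholesterol. The transcription factors SREBP-1 (gene Srebf1) and SREBP-2 (Srebf2) sit in the endoplasmic reticulum bound to Scap, and the Insig proteins hold them there while sterols are plentiful. When sterols run low the complex moves to the Golgi, where proteases release the active factor, which switches on sterol genes and, for SREBP-1, fatty acid genes. The nuclear receptors called LXRs answer to oxidised sterols and turn on exporters such as Abca1 and Abcg1. In beta cells membrane cholesterol is known to affect insulin granules and their release.

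Most genes of the sterol arm read lower in the transgenic sample, mostly by less than 1.5-fold, while those of the fatty acid arm differed in both directions. Of the 16 members in the mevalonate, isoprenoid and sterol steps, 15 had a negative difference, with a median of -0.34, and 3 were at least 1.5-fold lower. Of the 12143 genes that reached the floor defined below, 45.7% had a negative difference, 54.2% a positive one, and 3.14% were at least 1.5-fold lower. Differences are given as transgenic minus control, on the log2 scale. Scd2, a fatty acid desaturase, and Fdps, farnesyl diphosphate synthase, were furthest lower, at -1.45 and -1.13. The 12 members of acetyl-CoA supply, fatty acid synthesis, elongation and desaturation that reached the floor were divided, 6 higher and 6 lower. The floor was the median of all probe set values, 5.76, and 38 of the 39 members reached it on both arrays. The exception was Acacb, the acetyl-CoA carboxylase of the mitochondrial surface, at 5.12 and 4.76.

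Over the 38 members at the floor, 28 differences were negative and 10 positive, with a median of -0.29. Over the 12143 genes at the floor 45.7% were negative and 54.2% positive, and the median was 0.029. At the 2-fold rule, a log2 difference of 1, 2 members were lower, against 0.511% of all genes, and 0 were higher, against 2.51%. Just past the rule lay Fdps at -1.13, and just short of it Stard4 at -0.87. A 1.5-fold rule took in 8 members as lower, against 3.14% of all genes, and 0 as higher, against 7.73%. These 8 were Scd2, Fdps, Stard4, Elovl6, Insig1, Fdft1, Hmgcs1 and Srebf2. Since the choice of members drew on the same differences, nothing is read from these counts beyond the values themselves.

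**Figure D1:**
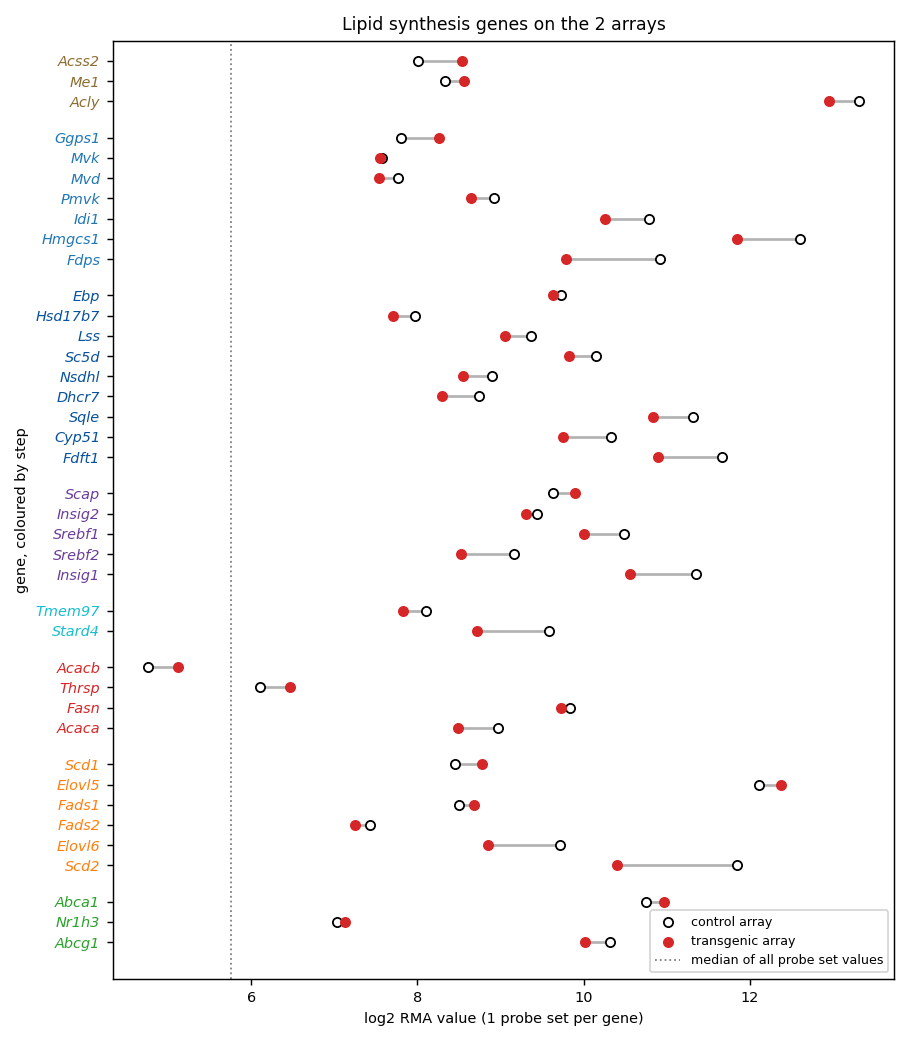
Log2 RMA value (horizontal axis) of each of the 39 measured genes (vertical axis, grouped and coloured by step) on the control array (open circles) and the transgenic array (filled circles), through the probe set with the highest mean. A grey bar joins both arrays and the dotted line is the floor of 5.76. Fdps (9.78 against 10.91) and Scd2 (10.40 against 11.85) have the longest bars, and Acacb alone lies left of the floor.

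The mevalonate steps opened with Hmgcs1, the cytosolic HMG-CoA synthase, which read 11.85 on the transgenic and 12.61 on the control array, a difference of -0.75. All 5 of its probe sets were lower, the other 4 between -1.33 and -0.25. The kinase Mvk, which phosphorylates mevalonate, read 7.55 and 7.57, a difference of -0.016. Its other probe set gave -0.38. Pmvk, the next kinase, stood at -0.27, and Mvd, the decarboxylase that makes isopentenyl diphosphate, at -0.23 with its other probe set at -0.38. Mvk, Pmvk and Mvd thus differed less than Hmgcs1 before them and Idi1 and Fdps after them.

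Idi1, the isomerase that supplies dimethylallyl diphosphate, read 10.26 and 10.79 (transgenic given before control, here and below), a difference of -0.53. Its other probe set gave -1.0. Fdps, which joins these units to farnesyl diphosphate, read 9.78 and 10.91, 2.19-fold lower. A difference as low as that of Fdps was found in 0.272% of the 12143 genes. Fdps has 1 probe set above the floor, so no other probe set bears on its value.

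Ggps1, which extends farnesyl to geranylgeranyl diphosphate for protein prenylation and so leaves the sterol route, was the exception among the 16. It read 8.26 and 7.81, a difference of 0.45. Its probe sets did not share a direction: 3 gave 0.31 to 0.45 and the other gave -0.32. The sign for Ggps1 therefore depends on the probe set read.

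In the sterol steps all 9 members had a negative difference, with a median of -0.35 and a range from -0.77 to -0.10. Fdft1, squalene synthase and the enzyme that commits farnesyl diphosphate to sterols, read 10.90 and 11.67, 1.70-fold lower, and a second probe set gave -0.62. Sqle, the squalene epoxidase and a rate-limiting step, read 10.83 and 11.32, a difference of -0.48. Lss, which closes the ring to lanosterol, stood at -0.31, and further probe sets gave -0.54 and -0.23.

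Cyp51, the cytochrome P450 that removes a methyl group from lanosterol, read 9.75 and 10.33, a difference of -0.58. Its other probe sets were further lower, at -1.09 and -0.77, and 1 of these passed the 2-fold rule. The later enzymes among the members differed less on their brightest probe sets. Msmo1, a sterol C4 methyl oxidase outside the members, stood at -0.68. Nsdhl, a decarboxylating dehydrogenase of the C4 demethylation complex, stood at -0.35 and Hsd17b7, its partner ketoreductase, at -0.27, with other probe sets at -0.51 and -0.45. Sc5d, a sterol desaturase, stood at -0.33 with other probe sets at -0.63 and -0.50, and Dhcr7, the final reductase of the Kandutsch-Russell route, read 8.30 and 8.74, a difference of -0.44. Ebp, the sterol isomerase, was closest to 0 at -0.10.

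Probe sets of a gene share its RNA and are no replicates, but they show how far a value depends on where the transcript is read. Of the 35 probe sets at the floor for the mevalonate, isoprenoid and sterol members, 32 were lower, with a median of -0.45, against 48.1% lower among 20548 probe sets with a single symbol. Of the 9 genes in these steps with several probe sets at the floor, all lower, the brightest gave the smallest decrease for 6 (Mvk, Mvd, Idi1, Cyp51, Sc5d and Hsd17b7) and did not for Hmgcs1, Fdft1 and Lss. Over all genes, probe sets of a gene at the floor were a median of 0.20 apart, so members with smaller differences, such as Mvk and Ebp, lay within that gap.

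**Figure D2:**
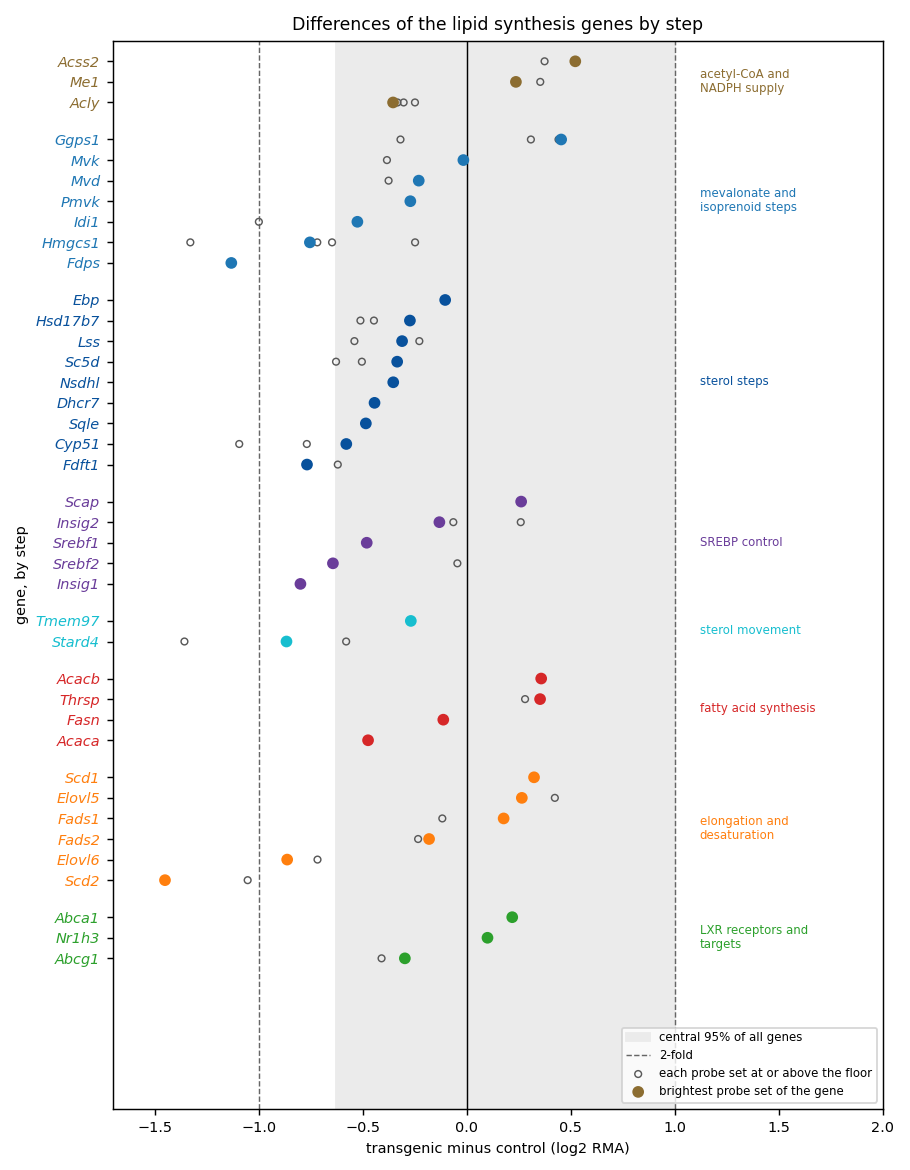
Transgenic minus control log2 difference (horizontal axis) of each measured gene (vertical axis, grouped by step). Filled points are the brightest probe set of each gene, open points its other probe sets at or above the floor, the grey band is the central 95% of all genes at the floor (-0.63 to 1.0) and dashed lines mark 2-fold. All 9 sterol genes lie left of 0, and Scd2 and Fdps lie beyond the left dashed line.

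Promoters of lower members are shown because sterol genes are known to share sites for SREBP and for the CCAAT-binding factor NF-Y. Windows of 250 bases before to 50 after the start site were taken from RefSeq (GRCm38.p6), and 33 of the 41 members had at least 1. The 8 without a window were Scd2, Fdps, Stard4, Fdft1, Sqle, Abcg1, Scd1 and Fads1. Scd2 and Fdps, the members furthest lower, were thus not searched. The letters searched on both strands were TCACNCCAC, as in the classic sterol regulatory element, the shorter TCACCNCA, chosen after these windows had been read, CCAAT, and the E-box CACGTG. TCACNCCAC and TCACCNCA can overlap. The printed windows are 4 of the lower members with a single window, and every match is in capitals. They were chosen without a fixed rule and are not typical of the lower members. Hmgcs1 is the only member with TCACNCCAC, and 4 of the 22 lower members with a window held TCACCNCA.
Hmgcs1, chr13:119690101-119690400, plus strand: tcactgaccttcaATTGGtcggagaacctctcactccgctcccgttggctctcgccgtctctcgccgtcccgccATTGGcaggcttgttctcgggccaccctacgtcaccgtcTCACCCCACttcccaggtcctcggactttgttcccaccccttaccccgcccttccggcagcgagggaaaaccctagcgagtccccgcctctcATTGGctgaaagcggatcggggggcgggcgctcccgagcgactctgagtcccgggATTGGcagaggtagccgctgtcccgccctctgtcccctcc
Cyp51, chr5:4104648-4104947, minus strand: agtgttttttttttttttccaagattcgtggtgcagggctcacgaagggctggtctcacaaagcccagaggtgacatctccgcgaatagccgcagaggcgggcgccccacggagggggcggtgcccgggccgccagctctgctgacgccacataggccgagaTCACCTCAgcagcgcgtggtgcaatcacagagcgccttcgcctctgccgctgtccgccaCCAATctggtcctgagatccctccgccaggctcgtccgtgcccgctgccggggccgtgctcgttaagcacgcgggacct
Insig1, chr5:28071162-28071461, plus strand: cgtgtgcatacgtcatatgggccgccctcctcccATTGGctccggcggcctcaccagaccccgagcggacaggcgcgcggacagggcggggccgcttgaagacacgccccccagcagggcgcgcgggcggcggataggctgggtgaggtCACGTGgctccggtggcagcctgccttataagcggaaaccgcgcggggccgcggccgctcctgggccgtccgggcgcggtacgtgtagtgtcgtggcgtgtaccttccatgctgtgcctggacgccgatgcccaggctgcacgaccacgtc
Srebf2, chr15:82147019-82147318, plus strand: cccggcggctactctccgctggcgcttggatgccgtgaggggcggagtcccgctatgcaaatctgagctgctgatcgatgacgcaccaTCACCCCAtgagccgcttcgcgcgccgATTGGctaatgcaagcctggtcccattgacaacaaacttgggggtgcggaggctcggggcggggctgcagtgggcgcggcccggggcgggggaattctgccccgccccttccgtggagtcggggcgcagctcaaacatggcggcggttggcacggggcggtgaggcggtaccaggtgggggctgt
In the Hmgcs1 window TCACNCCAC stood at -137 to -129 from the start site, among 4 matches of CCAAT, all written as ATTGG on the opposite strand. The Cyp51 and Srebf2 windows each held 1 TCACCNCA and 1 CCAAT. The Insig1 window held 1 CCAAT and 1 CACGTG.

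TCACNCCAC was found in 1 of 43 windows of the members and in 1.24% of all 32851 windows. The member windows include those of Acat2 and Nr1h2, which had no expression value and count below as neither lower nor higher. TCACCNCA was found in 5 of 43, against 4.42% of all windows. Because that pattern was chosen after these windows had been read, its counts by window and by gene cannot show an excess. CCAAT was found in 26 of the 43, or 60.5%, against 37.4% of all windows, and CACGTG in 8, or 18.6%, against 7.15%. By gene, 19 of the 22 lower members with a window and 6 of the 9 higher ones held CCAAT, against 41.1% of all genes with a window. CACGTG was held by 4 of the 22 lower and 3 of the 9 higher members, against 8.09% of all genes, and TCACCNCA by 4 and 1, against 5.08%. A match describes letters in a short window and is not a measured binding site.

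Among the genes that control the pathway, Insig1, which retains the SREBP complex and is itself a known SREBP target, differed furthest. It read 10.56 and 11.36, 1.74-fold lower, a difference as low as that of 1.03% of all genes. Its relative Insig2, which in liver is known to depend less on SREBP, stood at -0.13, with other probe sets at -0.064 and 0.26. Srebf2, the main driver of sterol genes, read 8.53 and 9.17, 1.56-fold lower, but its other probe set gave -0.045. Srebf1 read 10.00 and 10.48, a difference of -0.48, and Scap, the escort protein, was higher at 9.90 and 9.64. Of the 5 control genes 4 were lower, with a median of -0.48.

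Both members grouped as the sterol movement step, Stard4 and Tmem97, were lower. Stard4, a soluble carrier of cholesterol between membranes and a known SREBP target, read 8.72 and 9.58, 1.82-fold lower. Its other probe sets gave -1.36 and -0.58. Tmem97, the sigma-2 receptor of the endoplasmic reticulum and lysosome, read 7.83 and 8.10, a difference of -0.27.

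In the fatty acid arm, acetyl-CoA supply was mixed. Acly, ATP citrate lyase, which makes cytosolic acetyl-CoA from citrate, read 12.96 and 13.31, a difference of -0.35, and 3 further probe sets ran from -0.33 to -0.25. Acss2, which makes acetyl-CoA from acetate and is a known SREBP target, was higher, at 8.53 and 8.01, a difference of 0.52, with its other probe set at 0.37. Averaged with a probe set below the floor, Acss2 stood at 0.24. Me1, the malic enzyme that yields NADPH, was higher by 0.24 and 0.35 on its probe sets. Acss2 and Acly thus differed in opposite directions on every probe set at the floor.

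The synthesis enzymes were also divided. Acaca, the acetyl-CoA carboxylase that makes malonyl-CoA for synthesis, read 8.49 and 8.97, a difference of -0.47. Fasn, fatty acid synthase, read 9.73 and 9.84, a difference of -0.11, within the gap between probe sets of a gene. Thrsp, the lipogenic protein Spot 14, read 6.46 and 6.11, near the floor, a difference of 0.35.

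Among elongases and desaturases, Scd2 and Scd1 stood on opposite sides. Both make monounsaturated fatty acids from saturated ones. Scd2 read 10.40 and 11.85, 2.73-fold lower, and 0.132% of all genes were as low. The other Scd2 probe set at the floor gave -1.05. Scd1 read 8.78 and 8.45, a difference of 0.32, on its single probe set at the floor. Elovl6, which lengthens palmitate to stearate, read 8.85 and 9.71, 1.82-fold lower, with its other probe set at -0.72. Elovl5, which lengthens polyunsaturated fatty acids, was higher on both probe sets, at 0.26 and 0.42.

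Both polyunsaturated desaturases lay within 0.20 of 0 on their brightest probe sets. Fads1, the delta-5 desaturase, stood at 0.18 with its other probe set at -0.12, and Fads2, the delta-6 desaturase, at -0.18 with its other probe set at -0.23. Among these 6 members Scd2 and Elovl6 were thus the only ones at least 1.5-fold lower.

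**Figure D3:**
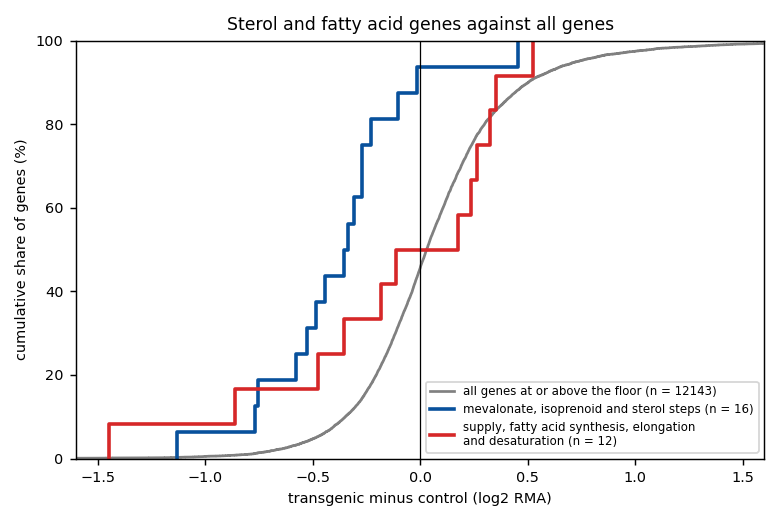
Cumulative share of genes in percent (vertical axis) against the transgenic minus control log2 difference (horizontal axis) for 12143 genes at the floor (grey), 16 mevalonate, isoprenoid and sterol members (blue) and 12 members of supply, fatty acid synthesis, elongation and desaturation (red). The blue curve lies left of the grey one, with 15 of 16 genes below 0, while the red curve crosses 0 with 6 genes on either side.

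The 3 measured LXR members lay between -0.30 and 0.22. Nr1h3, the receptor LXR alpha, read 7.13 and 7.03, a difference of 0.10. The exporter Abca1 read 10.97 and 10.75, a difference of 0.22. Abcg1, a further LXR target that moves sterols, read 10.02 and 10.32, a difference of -0.30, with its other probe set at -0.41. The exporters therefore stood on opposite sides of 0. Srebf1, described above, is also a known LXR target.

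Other genes of the pathway were taken from lists written from general knowledge. The list of other sterol synthesis enzymes had 5 genes with a value, 3 higher and 2 lower (median 0.011, none past 2-fold). Msmo1, the sterol C4 methyl oxidase, read 10.99 and 11.67, a difference of -0.68, with its other probe set at -0.74. Tm7sf2, a sterol reductase, stood at -0.18, and Lbr, which shares that reaction, at 0.011. Acat1, counted in this list although it is the mitochondrial thiolase of ketone and isoleucine metabolism, stood at 0.51. Cyb5r3, a reductase of cytochrome b5, stood at 0.034, although its other probe sets were lower, from -0.95 to -0.065.

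Enzymes that draw on isoprenoids were spread around 0 (10 genes, 6 higher and 4 lower, median 0.053). Fntb, the beta subunit of farnesyltransferase, stood at -0.55 and Dhdds, of dolichol synthesis, at -0.43, while Coq2, of coenzyme Q synthesis, stood at 0.46. Pggt1b, a subunit of an enzyme that prenylates proteins, stood at 0.18, with other probe sets at -0.59 and 0.024. The genes that process or degrade SREBP and its partners had a median of -0.26 (9 genes, 4 higher and 5 lower). Mbtps2, the site-2 protease that releases SREBP, read 8.15 and 8.75, a difference of -0.60, and Mbtps1, the site-1 protease, named after its value was seen, stood at 0.035. Erlin2, of a degradation complex in the endoplasmic reticulum, was higher by 0.76. Sec23a, a coat protein of vesicles that leave the endoplasmic reticulum, stood at -0.38 and Rnf139, a ubiquitin ligase, at -0.35.

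Uptake and handling of cholesterol had a median of 0.27 over 11 genes, 6 higher and 5 lower. Apoe, the lipoprotein of macrophages and other cells, read 10.64 and 9.33, 2.48-fold higher, and alone in that list passed the 2-fold rule. Scarb1, the HDL receptor, stood at 0.63 and Vldlr, a lipoprotein receptor, at -0.51, both with the same sign on all their probe sets at the floor. Nceh1, a cholesteryl ester hydrolase, stood at 0.30 and Npc1, the lysosomal cholesterol exporter, at -0.17. The 6 other LXR target genes at the floor were all higher, with a median of 0.23 and a range from 0.10 to 0.45, where 54.2% of all genes were positive, and none was 1.5-fold higher. Pltp, a phospholipid transfer protein, stood at 0.45, Smpdl3a at 0.34 and Mylip, a ubiquitin ligase, at 0.29.

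Further fatty acid genes had a median of -0.014 (15 genes, 7 higher and 8 lower). Elovl4, an elongase of very long chains, read 7.21 and 5.63, 2.99-fold higher, with a control value under the floor, where array background limits the fold. The other Elovl4 probe set at the floor gave a difference of 1.09. Elovl2, an elongase of polyunsaturated chains, read 6.80 and 7.82, 2.02-fold lower. Mcat, of mitochondrial fatty acid synthesis, stood at 0.40 and Mid1ip1, an activator of acetyl-CoA carboxylase, at 0.34. Mlx, the partner of the glucose-responsive factor ChREBP, stood at -0.36, as did Hacd3, a dehydratase of chain elongation.

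Islets hold several cell types, and in a bulk sample fewer cells of a type cannot be told apart from less RNA per cell. Beta cell markers had a median difference of 0.036 (13 of 15 with a value, all at the floor), and their summed linear signal in the transgenic sample was 104% of the control. That sum is carried by genes such as Ins2 and Iapp near the top of the scale, where differences are compressed, and without the 4 genes above 13 it was 97.7%. Ucn3, a peptide of mature beta cells, stood at -0.81. Macrophage markers were higher in 15 of 16 at the floor (median 0.83), with a summed signal of 158%, and Cd163 and Mrc1 were below the floor on both arrays. Stellate and fibroblast markers were higher in 8 of 10 (median 0.83, sum 169%), with Col1a1 and Pdgfra below the floor. Cell cycle genes were higher in 13 of 13 (median 0.82, sum 172%). Ductal markers were higher in 5 of 6 (median 0.22, sum 128%), with Cftr below the floor.

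Of the adipocyte markers 5 of 10 measured were at the floor (median 0.14, sum 67.4%), and Adipoq, Lep, Plin4, Cidec and Lipe were below it on both arrays. The sums of all lists include measured genes below the floor. That of the adipocyte list was carried by its brightest gene, Lpl, while 3 of the 5 genes at the floor were higher and 2 lower. Lpl, a lipoprotein lipase that other cells also make, read 10.57 and 11.43, and Fabp4, a fatty acid binding protein, 8.50 and 8.11. Of the hepatocyte markers 5 of 9 were at the floor (median 0.11, sum 85.4%, and 143% without Ttr, at 14.02 and 14.27), and Alb, Cps1, Cyp3a11 and Apoc3 were below it, while the apolipoprotein genes Apoa1 and Apoa2, which enterocytes also express, were 2.61-fold and 2.03-fold higher. Acinar markers (10 genes, median 0.096, sum 108%), with Ptf1a below the floor, and endothelial markers (9 genes, median 0.072, sum 106%), with Tie1 below it, had medians near 0, although the acinar protease gene Ctrc was 4.70-fold lower, and without the 7 acinar genes above 13 the acinar sum was 48.0%. Lpl, Fabp4, Ttr, Ctrc, Ucn3, Apoa1 and Apoa2 were picked out after their values were seen. The part of macrophage, stellate and dividing cells in the values of the lipid genes was not tested.

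**Figure D4:**
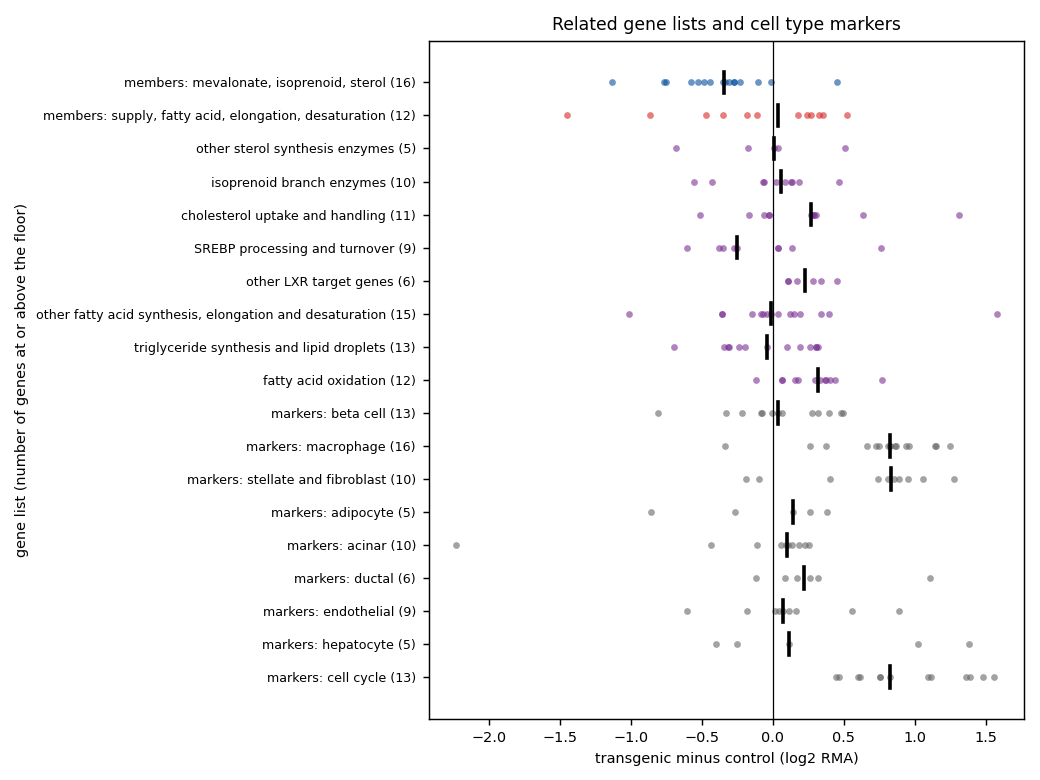
Transgenic minus control log2 difference (horizontal axis) of each gene at the floor, by list (vertical axis, number of genes in brackets), with the median of each list as a black bar. The mevalonate, isoprenoid and sterol members lie mostly left of 0 (median -0.34), while macrophage, stellate and cell cycle lists lie mostly to the right (medians 0.83, 0.83 and 0.82).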

How the data were processed

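The authors deposited log2 expression values per probe set, made with RMA in Affymetrix Expression Console per the submitters' processing notes, which give no versions. The method subtracts background, brings arrays to a common distribution and summarises probes, and it compresses differences of very dim and very bright probe sets. With 1 array per genotype the number of arrays limits the precision.

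Names came from the platform's annotation, with symbols updated by gene identifier to the GRCm38.p6 table (34741 of 34945 with a single symbol matched). Array controls and probe sets with several symbols (932) or none (9160) were left out. Each gene took its probe set with the highest mean. The floor was the median of all values (5.76) on at least 1 array. The members and lists were chosen with earlier results of these data known. Named genes were every member, those past 2-fold and up to 3 per direction of each related list. The summaries were tested on simulated data with known shifts. Python 3.11.15, numpy 2.4.6, pandas 2.3.3 and, for the lowess trend, statsmodels 0.14.6 (span 0.3) were used. Alternatives were other probe set choices, floors, a lowess trend, a second quantile normalization and a 1.5-fold rule.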

Additional observations from a re-analysis of the deposited data

How the results depend on the processing

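No paired analysis was possible because there was 1 array per genotype, and for the same reason no replicate could be left out. With probe sets averaged per gene 1 member, Scd2, was 2-fold lower in place of 2, since Fdps averaged to -0.62 with a probe set below the floor. Averaging only probe sets at the floor, chosen after seeing the data, left both. The 1.5-fold rule gave 8 lower members and 381 lower genes in all, against 62 at 2-fold, and 939 higher genes against 305. Without a floor the median of the fatty acid synthesis step was 0.12 rather than -0.11, since Acacb entered. With a floor at the 75th percentile the median of the mevalonate and isoprenoid step was -0.53. The other 79 of 81 recomputed medians moved by less than 0.20, the median gap between probe sets of a gene. The medians of the LXR step (-0.039 without those probe set classes named below or with the stricter floor) and of elongation and desaturation (0.18 with the stricter floor) changed sign within that gap. Among single members the sign turned for Ggps1 (-0.32 by the brightest control probe set, or without the _s, _x and _a classes) and for Insig2 when probe sets were averaged. Neither had passed the 2-fold rule. Averaging all probe sets moved 10 of 38 members by more than that gap. Acss2 shrank to 0.24, Acly to -0.15, Srebf2 to -0.34 and Fdft1 to -0.46, as probe sets near or below the floor entered for Acss2, Acly and Fdft1. Idi1 and Cyp51 instead moved to larger decreases, at -0.76 and -0.81.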

Other observations

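Most genes that burn fatty acids read higher in the transgenic sample, by small amounts. Of 15 genes of fatty acid oxidation listed from general knowledge, 12 were at the floor, of which 11 had a positive difference (median 0.31), where 54.2% of all genes at the floor were positive. None passed the 2-fold rule on its brightest probe set. Acaa2, a thiolase named after its values were seen, stood at 0.067 there, and its other probe sets gave 0.62 and 1.02, the latter past the rule. Slc25a20, the carnitine carrier of the mitochondrial membrane, read 9.89 on the transgenic and 9.12 on the control array, a difference of 0.77, with its other probe set at 0.75. Cpt1a, which loads fatty acids onto carnitine, stood at 0.44, but its other probe sets gave only 0.071 and 0.085. Acadvl, a dehydrogenase of long chains, stood at 0.40. Cpt2 was the member on the lower side, at -0.12.

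Genes of triglyceride synthesis and lipid droplets had a median of -0.045 over 13 genes, 6 higher and 7 lower, none past 2-fold. Lpin1, a phosphatidate phosphatase and a known SREBP target, read 9.65 and 10.35, a difference of -0.70 on both of its probe sets. Acsl4, an acyl-CoA synthetase of arachidonate, stood at -0.35 and Agpat2 at -0.32. Plin2, a lipid droplet coat protein, stood at 0.31, Dgat1, which completes triglycerides, at 0.31 and Gpam at 0.30.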
